A study of Mus musculus with 49 samples.

Results

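The genes described here are 9 stress-response genes of the mouse: the metallothioneins Mt1 and Mt2, the heat shock genes Hspa1a, Hspa1b, Hsph1, Dnajb1, Hsp90aa1 and Hspb1, and the haem oxygenase gene Hmox1. They were chosen by symbol in the deposited count table, and all 9 of them were found among its 39179 genes. The tumours were grown from CT26, a mouse colorectal carcinoma line, in Balb/c mice, and RNA was taken from bulk tumour. The question behind the design was how the COX-2 inhibitor celecoxib changes tumours treated with an antibody against PD-1, an inhibitory receptor of T cells. Anti-PD-1 plus celecoxib (called the combination here) was given to 16 tumours, anti-PD-1 alone to 17, celecoxib alone to 7, and vehicle (DMSO, PEG400 and water) to 9. Per the labels, treatment began 7 days after tumour cells were injected and ran for 7 days, with celecoxib at 30 mg/kg each day and the antibody at 200 µg in each of 2 doses. Sampling is placed on day 7 of treatment by the tissue label but on day 4 by the extraction protocol. Each tumour is labelled R or NR for response, without a definition in the labels. The combination had 12 R and 4 NR tumours, anti-PD-1 had 4 R and 13 NR, and every celecoxib and vehicle tumour was NR. The labels give no age or sex of the mice and do not say whether each tumour came from its own mouse, so a p-value here measures sample-to-sample spread, which may be partly technical.

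Metallothioneins are small cysteine-rich proteins that bind zinc and copper, and their genes are switched on by the metal-sensing factor MTF1, by glucocorticoids and by low oxygen. The heat shock genes encode chaperones and their helpers, which fold or hold unfolded proteins and are induced by heat shock factor 1. Hspa1a and Hspa1b encode inducible HSP70, Dnajb1 an HSP40 co-chaperone that hands clients to HSP70, Hsph1 the nucleotide exchange factor HSP110, Hsp90aa1 the inducible HSP90, and Hspb1 a small heat shock protein that is abundant in muscle. Hmox1 encodes the enzyme that breaks down haem and is a target of NRF2. Aldolase A, encoded by Aldoa, is an enzyme of glycolysis and a target of the hypoxia-inducible factor.

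The promoters are shown because the metallothionein and HSP70 genes lie in pairs of near neighbours. Each window holds 250 bases before and 50 after the start, from RefSeq on GRCm38.p6, a reference sequence from another strain than Balb/c. For Mt1 (chr8:94178839-94179138, plus strand) and Mt2 (chr8:94172368-94172667, plus strand) capitals mark the metal response element, searched as TGCGCNC or TGCACNC on both strands.

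Mt1: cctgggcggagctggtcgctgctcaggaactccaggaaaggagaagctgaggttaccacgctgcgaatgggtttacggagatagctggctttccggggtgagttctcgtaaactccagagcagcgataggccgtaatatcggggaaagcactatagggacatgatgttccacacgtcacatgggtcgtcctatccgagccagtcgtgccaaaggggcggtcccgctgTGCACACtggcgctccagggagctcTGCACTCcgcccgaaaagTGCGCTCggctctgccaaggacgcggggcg
Mt2: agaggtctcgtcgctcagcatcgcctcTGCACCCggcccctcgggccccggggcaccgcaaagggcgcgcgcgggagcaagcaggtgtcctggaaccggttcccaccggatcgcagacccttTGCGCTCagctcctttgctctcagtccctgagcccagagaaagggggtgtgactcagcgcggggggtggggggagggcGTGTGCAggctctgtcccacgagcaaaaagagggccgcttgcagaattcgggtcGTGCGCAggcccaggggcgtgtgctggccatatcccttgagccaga

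The Mt1 window held 3 matches and the Mt2 window 4. At least 1 match was found in 25.7% of 32851 mouse promoter windows of the same length, and 3 or more in 1.97%. For Hspa1b (chr17:34959189-34959488, minus strand) and Hspa1a (chr17:34972107-34972406, minus strand) capitals mark the bases at which their windows differ.

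Hspa1b: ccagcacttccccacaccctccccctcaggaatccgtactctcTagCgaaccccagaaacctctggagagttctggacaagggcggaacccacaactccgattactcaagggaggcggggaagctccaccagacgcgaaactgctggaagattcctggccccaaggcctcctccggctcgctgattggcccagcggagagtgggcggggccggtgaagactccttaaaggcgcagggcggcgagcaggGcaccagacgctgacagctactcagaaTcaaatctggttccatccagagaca
Hspa1a: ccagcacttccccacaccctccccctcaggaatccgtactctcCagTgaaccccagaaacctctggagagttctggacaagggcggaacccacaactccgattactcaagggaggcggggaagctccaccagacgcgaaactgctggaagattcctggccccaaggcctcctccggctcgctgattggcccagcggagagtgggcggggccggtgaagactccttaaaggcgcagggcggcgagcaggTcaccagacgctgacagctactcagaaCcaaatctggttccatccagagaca

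Only 4 of the 300 bases differed between these windows. A heat shock element, searched on both strands as GAA, TTC and GAA, or TTC, GAA and TTC, with 2 bases between units, had no match in either window, and 0.603% of all windows held one. The Hsph1 window (chr5:149636287-149636586, minus strand) held 1 match, in capitals, and the windows of Dnajb1 (2 entries) and Hspb1 held none. The search allowed no changed base in any unit. A window without a match may thus still hold an imperfect heat shock element.

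Hsph1: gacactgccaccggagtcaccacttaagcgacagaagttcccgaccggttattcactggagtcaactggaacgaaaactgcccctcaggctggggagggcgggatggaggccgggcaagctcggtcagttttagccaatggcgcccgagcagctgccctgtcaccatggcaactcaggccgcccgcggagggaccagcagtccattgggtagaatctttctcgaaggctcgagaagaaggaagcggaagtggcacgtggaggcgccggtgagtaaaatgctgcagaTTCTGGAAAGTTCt

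On GRCm38, Mt2 (chr8:94172664-94173568) ends 5513 bases before Mt1 (chr8:94179082-94180327) starts, and 9951 bases lie between Hspa1b (chr17:34956436-34959238) and Hspa1a (chr17:34969190-34972156). Of the 2754 windows of 50 bases in Hspa1b, 62.3% also occur in Hspa1a, but 0 of the 351 windows in its last 400 bases do, and the libraries read the 3′ ends of transcripts. Mt2 overlaps Gm45774, Hspa1a overlaps Gm20481 and Aldoa overlaps Fam57b on the opposite strand. The kit keeps strand, but no source used here names the counting setting, so reads of these pairs could have been assigned to either gene.

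Total counts ranged from 4251251 to 13671294 in the 49 libraries, with a median of 7670623. Levels are CPM, counts scaled to the library total with TMM factors, and depth limits the precision of Hspa1a (0 to 66 counts per tumour) and Hspb1 (2 to 221). Epithelial markers were low for a carcinoma line: Epcam was at 0 in 18 tumours and Vil1 at 0 in 43, while Krt8 and Krt18 had a count in every tumour. Skeletal muscle genes varied widely, with a summed level over 9 genes of 6.46 to 2644 CPM in combination tumours, 4.78 to 657 in anti-PD-1 tumours, 7.36 to 5046 in celecoxib tumours and 4.04 to 144 in vehicle tumours. In 15 libraries their mean exceeded 3 log2 CPM. Clock genes differed too, as given below. Aldoa stood at 2586 CPM or more in 4 tumours (combination replicate 15, anti-PD-1 replicates 12 and 14, vehicle replicate 8) and at 1449 CPM or less in the other 45. Results that rest on these tumours are given with and without them. In bulk tumours, fewer cells of a type and less RNA per cell cannot be told apart.

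No member passed the adjusted limit of 0.05 in any comparison of treatments with edgeR, although several differed at an unadjusted p under 0.05. The highest metallothionein levels were in a vehicle tumour, replicate 8. Mt1 had a lowest, median and highest level of 644, 1036 and 5773 CPM in combination tumours, 624, 1087 and 5595 in anti-PD-1 tumours, 870, 1397 and 2010 in celecoxib tumours, and 1113, 1728 and 7994 in vehicle tumours. The medians ran upwards in that order, and the ranges of all 4 treatments overlapped. Mt2 had 707, 1576 and 4655 CPM in combination tumours, 580, 1478 and 4038 in anti-PD-1 tumours, 1026, 1659 and 1900 in celecoxib tumours, and 1297, 1908 and 6493 in vehicle tumours. Its ranges overlapped as well, and vehicle replicate 8 was again the highest.

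**Figure D1:**
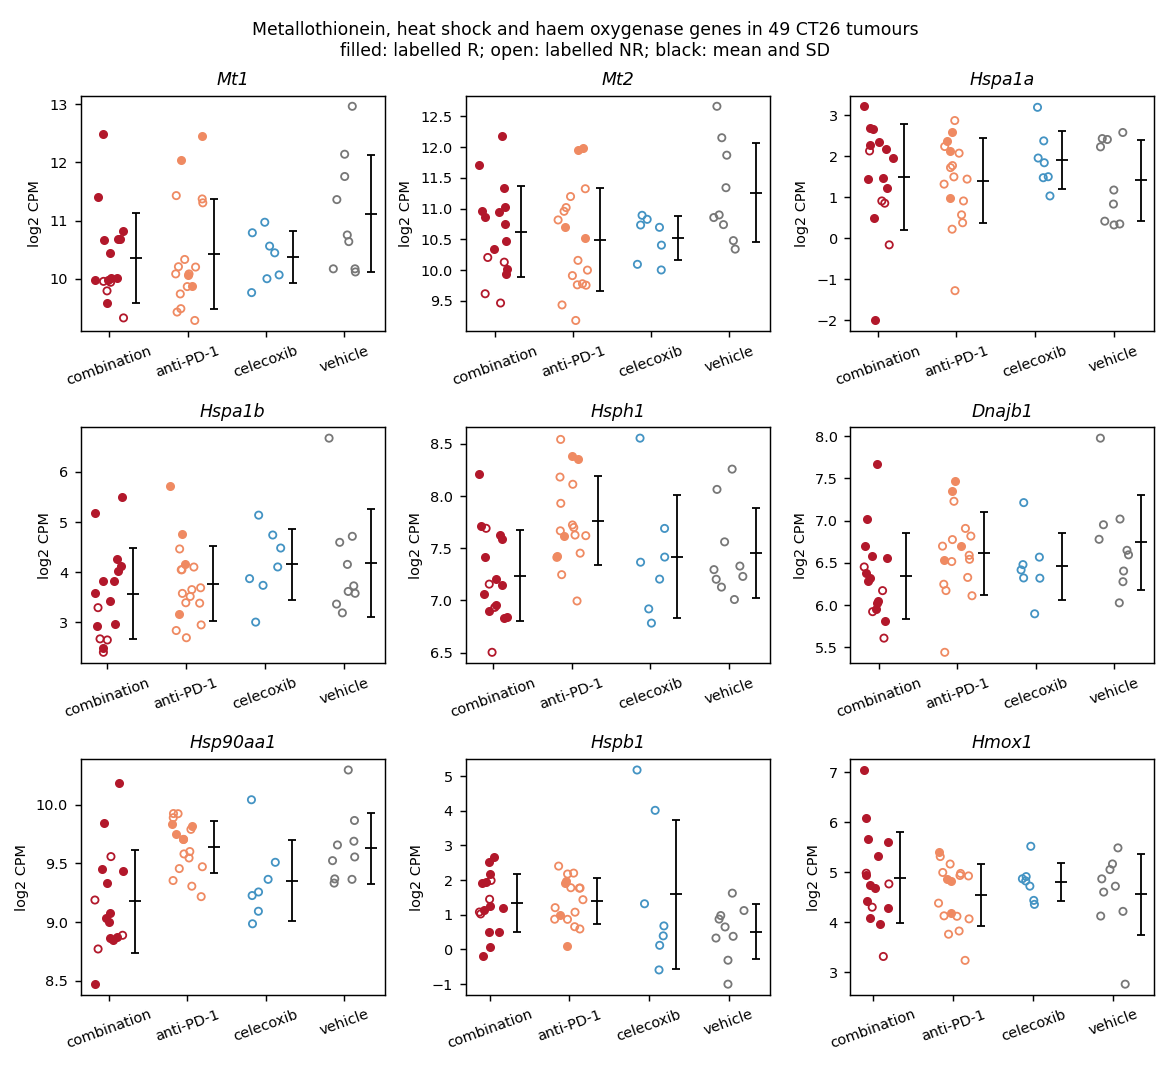
Level of each of the 9 genes (vertical axis, log2 CPM) in 49 tumours by treatment, with filled points for R, open points for NR, and the mean and SD beside them. Vehicle replicate 8 is the highest point for Mt1 (7994 CPM), Mt2, Hspa1b, Dnajb1 and Hsp90aa1, and 2 celecoxib tumours stand above all others for Hspb1.

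Against vehicle, the log2 change of Mt1 was -1.03 with celecoxib (SE 0.46, edgeR adjusted p = 1.0) and -0.85 with the combination (SE 0.36, edgeR adjusted p = 0.247). Mt2, also short of the adjusted limit, had log2 changes of -0.66 in combination (SE 0.30), -0.74 in anti-PD-1 (SE 0.30) and -0.91 in celecoxib tumours (SE 0.38). These comparisons share the vehicle tumours. Without vehicle replicate 8 the Mt1 changes were -0.64 with celecoxib and -0.47 with the combination, and those of Mt2 were -0.41 in the combination and -0.49 under the antibody alone.

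Of the heat shock genes, Hsp90aa1, Hsph1, Hspa1b and Dnajb1 had their lowest medians in combination tumours, and Hspa1a and Hspb1 did not. Hsp90aa1 had a lowest, median and highest level of 355, 532 and 1167 CPM in combination tumours and 595, 835 and 972 CPM in anti-PD-1 tumours, against 507, 611 and 1055 in celecoxib tumours and 644, 752 and 1258 in vehicle tumours. The combination reached lower than any other treatment, but its highest tumours overlapped all of them. Its log2 change was -0.41 against anti-PD-1 (SE 0.12, edgeR adjusted p = 0.0787) and -0.42 against vehicle (SE 0.14, edgeR adjusted p = 0.185). Hsph1 had 90.4, 142 and 296 CPM in combination tumours against 127, 203 and 373 CPM in anti-PD-1 tumours, with a log2 change of -0.52 (SE 0.16, edgeR adjusted p = 0.0921). Celecoxib tumours had 110, 165 and 376 CPM of Hsph1 and vehicle tumours 129, 157 and 306.

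Of the genes tested, 0.503% passed in the combination against anti-PD-1 (69 of 13726), and 0 of 9 members did. At an unadjusted p under 0.05 there were 3 members. By DESeq2 1 member passed, Hsp90aa1 (adjusted p = 0.0453), among 288 genes, and by limma-voom 0. With the muscle list mean as a covariate Hsph1 and Hsp90aa1 passed (edgeR adjusted p = 0.0403 and 0.0249), beside 1.11% of genes, and over all settings tried without leaving out single tumours their adjusted p ran from 0.0403 to 0.117 and from 0.0151 to 0.117. Without the 4 high-Aldoa tumours both passed too (edgeR adjusted p = 0.0473 and 0.0151), beside 3.35% of genes. The clock measure (Dbp, Tef, Per2, Per3 and Nr1d2 less Arntl, in log2 CPM) also differed between these treatments, at 3.12 ± 0.98 in combination tumours (SD, n = 16) and 0.65 ± 0.62 in anti-PD-1 tumours (SD, n = 17). Anti-PD-1 alone stood apart in it, as celecoxib tumours had 3.74 ± 0.42 (SD, n = 7) and vehicle tumours 3.62 ± 0.48 (SD, n = 9). T cell markers had a positive log2 change for 7 of 7 genes (median 1.27), none past the limit, with summed levels of 7.84 to 431 CPM in combination tumours and 3.84 to 213 CPM in anti-PD-1 tumours. The part of either in the result was not tested.

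Against vehicle, the combination had 5 of 9 members at an unadjusted p under 0.05 and 0 past the adjusted limit with edgeR, DESeq2 and limma-voom, beside 0.0729% of all genes (10 of 13726). Hspa1b had a lowest, median and highest level of 5.02, 11.1 and 45.3 CPM in combination tumours, 6.20, 12.3 and 52.3 in anti-PD-1 tumours, 7.76, 16.9 and 34.9 in celecoxib tumours, and 8.85, 13 and 102 in vehicle tumours. The 102 CPM came from vehicle replicate 8, and the other vehicle tumours lay between 8.85 and 26. Its log2 change in the combination was -0.80 (SE 0.38, edgeR adjusted p = 0.306), -0.09 without that tumour and -0.31 without the 4 high-Aldoa tumours. Dnajb1 ranged from 48.6 to 203 CPM in combination tumours and from 65 to 252 CPM in vehicle tumours. The log2 change was -0.41 (SE 0.21), and -0.18 without vehicle replicate 8. Without the 15 muscle-rich libraries, Mt1, Hspa1b, Dnajb1 and Hsp90aa1 passed the limit, with log2 changes of -1.30, -1.34, -0.69 and -0.70, and so did 7.06% of the 13526 genes tested in that fit. The libraries left out were uneven between these treatments. They were combination replicates 2, 3, 7, 10, 13, 14 and 15, but of the vehicle tumours only replicate 7. That fit thus kept vehicle replicate 8 and lost the high-Aldoa combination replicate 15.

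Anti-PD-1 against vehicle had 1 member at an unadjusted p under 0.05 (Mt2) and 0 past the limit with edgeR, DESeq2 and limma-voom, beside 0.0874% of genes (12 of 13726). The clock genes Dbp, Tef, Per2, Per3 and Nr1d2 all fell past the limit there with edgeR, and Arntl rose. Their part in the Mt2 change was not tested. Hspa1a stayed low, at 3.45 ± 2.40 CPM in combination tumours, 2.99 ± 1.88 in anti-PD-1 tumours, 3.98 ± 2.41 in celecoxib tumours and 3.02 ± 2.04 in vehicle tumours (SD, n = 16, 17, 7 and 9), and had no unadjusted p under 0.05.

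Hspb1 was high in 2 of the celecoxib tumours. The 7 celecoxib tumours had 35.9, 1.35, 15.9, 0.837, 2.24, 1.06 and 0.41 CPM from replicate 1 to replicate 7. The combination, anti-PD-1 and vehicle tumours spanned 0.633 to 6.10, 0.823 to 5.05 and 0.25 to 2.83 CPM. Celecoxib replicates 1 and 3 were the only tumours above 6.10 CPM, and they had the highest muscle list means of the series, 8.56 and 8.19 log2 CPM. Combination replicates 14 and 15, with muscle list means of 7.46 and 7.75, had 3.58 and 6.10 CPM of Hspb1. Skin epithelium markers also stood out in celecoxib replicate 3, with a summed level over 7 genes of 1368 CPM, against 5.86 to 10.6 CPM in the other celecoxib tumours. They summed to 13 CPM or less in combination tumours, 15.2 or less in anti-PD-1 tumours and 25.2 or less in vehicle tumours. Of these genes, Sbsn and Krt10 fell in the combination against celecoxib (log2 changes -2.84 and -2.28, SE 0.53 and 0.43, edgeR adjusted p = 0.00824 each). The part of muscle and skin in the Hspb1 values was not tested. The log2 change was 2.61 with celecoxib against vehicle (SE 0.58, edgeR adjusted p = 0.257) and -1.62 in the combination against celecoxib (SE 0.48, edgeR adjusted p = 0.737). With celecoxib against vehicle 0 of 9 members and 0% of genes passed with edgeR, 3 members had an unadjusted p under 0.05, and DESeq2 called 1 among 10 genes, Hspb1 (adjusted p = 0.00645, in a range of 0.00645 to 1.0 over the settings). The change was 1.03 with limma-voom, 1.20 with muscle as a covariate and -0.28 without the muscle-rich libraries. In the combination against celecoxib 0 of 9 members and 0.0364% of genes passed with edgeR, with 1 member at an unadjusted p under 0.05, and 0 members with DESeq2 and limma-voom.

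**Figure D2:**
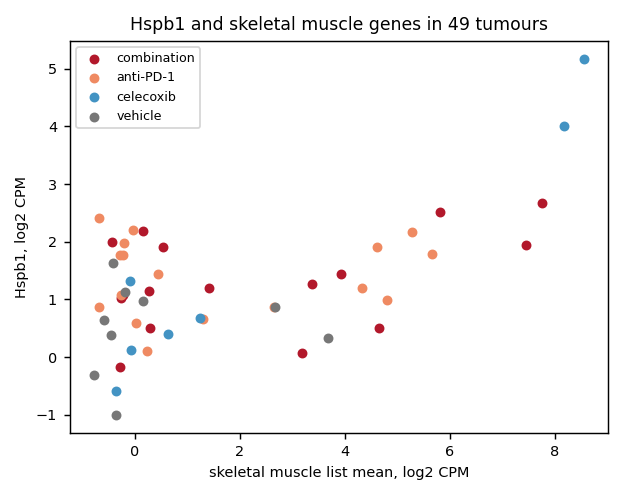
Hspb1 (vertical axis, log2 CPM) against the mean of 9 skeletal muscle genes (horizontal axis, log2 CPM) in 49 tumours, coloured by treatment. The 2 celecoxib tumours at the upper right have muscle means of 8.56 and 8.19.

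Hmox1 was highest in 1 combination tumour. It had a lowest, median and highest level of 9.72, 26.7 and 132 CPM in combination tumours, 9.19, 28 and 42.2 in anti-PD-1 tumours, 20.3, 28.2 and 45.7 in celecoxib tumours and 6.54, 26.2 and 44.7 in vehicle tumours. The medians lay close together, and the 132 CPM came from combination replicate 14, labelled R, with a muscle list mean of 7.46. The log2 change in the combination against anti-PD-1 was 0.54 (SE 0.25, edgeR adjusted p = 0.249), and 0.33 without the muscle-rich libraries. The effect of celecoxib with anti-PD-1 less that without it had 2 members at an unadjusted p under 0.05, Mt2 (1.0, SE 0.46) and Hspb1 (-2.6, SE 0.70), and 0 members and 0% of genes past the limit with edgeR, with 0 members by DESeq2 and limma-voom.

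**Figure D3:**
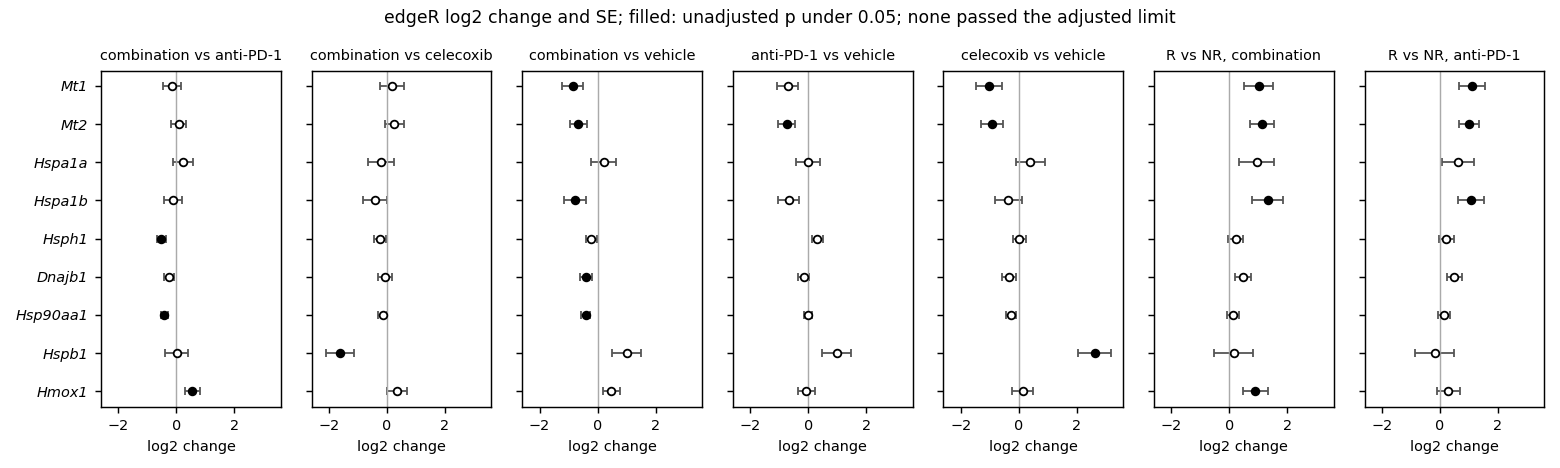
Log2 change with its SE (horizontal axis) of the 9 genes in 5 comparisons of treatments and 2 of response labels, from edgeR fits of all 49 libraries. Filled points have an unadjusted p under 0.05, and none passed the adjusted limit; the Hspb1 change of 2.61 with celecoxib is the farthest from 0.

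Between response labels, the fitted changes of Mt1, Mt2 and Hspa1b were positive, R over NR, within both antibody treatments, but none passed the adjusted limit. In the combination, Mt1 had a lowest, median and highest level of 765, 1511 and 5773 CPM in the 12 R tumours, and 644, 995, 888 and 984 CPM in the 4 NR tumours. The NR tumours were all at 995 CPM or below, and 1 R tumour was among them. Mt2 had 978, 1924 and 4655 CPM in R tumours, and 707, 1120, 784 and 1181 CPM in NR tumours. Hspa1b had 5.35, 13.9 and 45.3 CPM in R tumours, and 6.0, 5.02, 6.10 and 9.53 CPM in NR tumours. Hmox1 had a lowest, median and highest level of 15.4, 28.4 and 132 CPM in R tumours, and 9.72, 23.3 and 31.4 CPM in NR tumours. Its 132 CPM came from R replicate 14 alone. The log2 changes, R over NR, were 1.02 for Mt1, 1.12 for Mt2, 1.33 for Hspa1b and 0.90 for Hmox1 (SE 0.50, 0.40, 0.53 and 0.43). The lowest adjusted p of a member was 0.431 (edgeR, Mt2).

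All 9 members had a positive change there, with a median of 0.90, beside a median of 0.03 over all genes tested. The changes of Hsph1, Hsp90aa1 and Hspb1 were within their SE, at 0.21, 0.14 and 0.15 (SE 0.27, 0.20 and 0.68). Many members vary together between tumours, as given below, so they are not 9 separate results. With edgeR 0 of 9 members and 0% of genes passed, 4 members had an unadjusted p under 0.05, and DESeq2 and limma-voom called 0. The muscle list mean was 2.89 ± 2.95 in R tumours (SD, n = 12) and 0.75 ± 2.12 in NR tumours (SD, n = 4). Without the muscle-rich libraries the changes of Mt1, Mt2 and Hspa1b were 0.30, 0.60 and 0.66. The libraries left out were R replicates 3, 7, 10, 13, 14 and 15, but of the NR tumours only replicate 2. That fit thus lost R replicate 15, which had the highest level of all 3 genes. Without the 4 high-Aldoa tumours the changes of these genes were 0.72, 0.97 and 1.12. No marker of the muscle, T cell or adipocyte lists passed there, with all 9 muscle (median 3.42), 7 T cell (median 1.26) and 4 tested adipocyte genes (median 2.98) at a positive log2 change. Summed T cell markers ranged from 7.84 to 431 CPM in R tumours and from 25.9 to 94.3 CPM in NR tumours, and adipocyte markers from 0.194 to 29.1 CPM in R tumours and from 0.392 to 1.55 CPM in NR tumours. Their part in the member changes was not tested.

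Under anti-PD-1, Mt1 had 4226, 5595, 1074 and 936 CPM in the 4 R tumours (replicates 12, 14, 15 and 17), and a lowest, median and highest level of 624, 1087 and 2761 CPM in the 13 NR tumours. Replicates 12 and 14 lay above every NR tumour, and the other R tumours lay within the NR range. Hspa1b had 27, 52.3, 17.6 and 8.69 CPM in the same R tumours, and 6.20, 11.7 and 21.8 CPM in NR tumours. Mt2 had 3958, 4038, 1478 and 1656 CPM in R tumours, and 580, 1024 and 2563 CPM in NR tumours. The log2 changes, R over NR, were 1.10 for Mt1, 1.01 for Mt2 and 1.06 for Hspa1b (SE 0.44, 0.35 and 0.45, lowest edgeR adjusted p = 0.701). Muscle list means were 2.37 ± 2.72 in R tumours (SD, n = 4) and 1.35 ± 2.33 in NR tumours (SD, n = 13). Without the muscle-rich libraries the Hspa1b change was 0.68, with only R replicates 12 and 17 left. That fit lost R replicates 14 and 15, and replicate 14 had the highest Hspa1b level of the R tumours. Without the 4 high-Aldoa tumours, which include R replicates 12 and 14, the changes were -0.43 for Mt1, 0.20 for Mt2 and 0.09 for Hspa1b, so the higher R values rested on those 2 tumours. Of the 9 members 8 were positive, with a median of 0.50 beside 0.00 over all genes, and here too they are not 9 separate results. With edgeR 0 members and 0% of genes passed, 3 members had an unadjusted p under 0.05, and DESeq2 and limma-voom called 0. The R over NR change in the combination less that under anti-PD-1 passed for 0 members and 0% of genes with edgeR, DESeq2 and limma-voom called 0 members, and no member had an unadjusted p under 0.05.

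Between tumours, the metallothioneins followed Aldoa closely. Across 49 tumours the Pearson r of log2 CPM was 0.89 for Mt1 (Spearman rho 0.81) and 0.81 for Mt2 (rho 0.77), each with a permutation p of 1e-05, the smallest that 100000 resamples give, and adjusted p of 2.72e-05 and 4.03e-05 for r and rho over all pairs of the 9 members with 13 glycolysis genes. Mt1 ranked 9th and Mt2 65th of 13596 genes by r with Aldoa. Of the 9 members 4 had an r of at least 0.5, beside 6.22% of genes. Hspa1b reached 0.68 (rho 0.48, adjusted p of rho 0.00119) and Dnajb1 0.64 (rho 0.43, adjusted p of rho 0.00374), both with an adjusted p of r of 2.72e-05. Hsph1 had r of 0.44 (adjusted p = 0.00298) and Hsp90aa1 0.38 (adjusted p = 0.0118), but their rho of 0.27 each did not pass (adjusted p = 0.0891 and 0.089). Hmox1 (0.23), Hspa1a (0.20) and Hspb1 (0.09) did not pass.

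**Figure D4:**
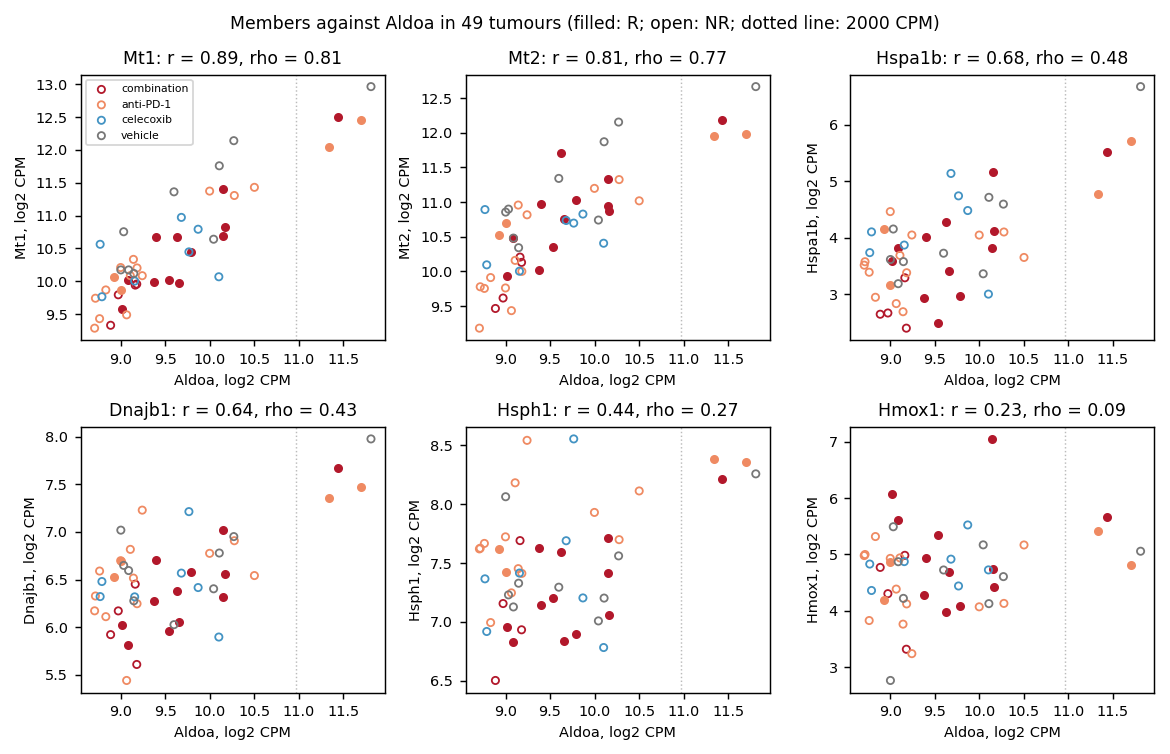
Level of 6 of the genes (vertical axis, log2 CPM) against Aldoa (horizontal axis, log2 CPM) in 49 tumours, coloured by treatment, with R filled and NR open. The 4 tumours right of the dotted line at 2000 CPM stand apart from the other 45, and Mt1 follows Aldoa on both sides of it.

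Without the 2 tumours farthest from the median of Aldoa (anti-PD-1 replicate 14 and vehicle replicate 8) r was 0.85 for Mt1, 0.76 for Mt2, 0.52 for Hspa1b, 0.50 for Dnajb1, 0.31 for Hsph1 and 0.24 for Hsp90aa1. Among the 45 tumours at or below 2000 CPM of Aldoa, r was 0.79 for Mt1, 0.70 for Mt2 and 0.38 for Hspa1b, which passed, and 0.28 for Dnajb1, 0.10 for Hsph1 and 0.06 for Hsp90aa1, which did not. The r of these last 3 genes with Aldoa was thus lower without the 4 highest tumours, but leaving them out also narrows the range of Aldoa. Within anti-PD-1 tumours rho was 0.66 for Dnajb1, 0.58 for Hsph1 and 0.55 for Hsp90aa1 (permutation, adjusted p = 0.0161, 0.0371 and 0.0427). In combination tumours it was 0.69, 0.44 and 0.30, and only Dnajb1 passed (permutation, adjusted p = 0.0125). In celecoxib and vehicle tumours none of the 3 passed by rho. Within treatments, r of Mt1 with Aldoa was 0.94 in combination tumours (n = 16), 0.97 in anti-PD-1 tumours (n = 17), 0.36 in celecoxib tumours (n = 7, exact permutation p = 0.404) and 0.90 in vehicle tumours (n = 9, exact permutation p = 0.00169). The vehicle r passed (exact permutation, adjusted p = 0.0109), but the vehicle rho of 0.77 did not (exact permutation, adjusted p = 0.193). Without vehicle replicate 8 the vehicle r was 0.82 (n = 8), which did not pass (exact permutation, adjusted p = 0.15).

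Against the 13 glycolysis genes, 80 pairs passed by r and 69 by rho. The smallest absolute r that passed was 0.31, which 34.7% of all pairs of a glycolysis gene and a tested gene reached. Mt1, Mt2, Hspa1b and Dnajb1 passed with all 13, Hsph1 with 11, Hsp90aa1 with 9 and Hspa1a with 3, all positive. Hmox1 passed with 4, of which 3 were positive and 1 negative, and Hspb1 with 1, Pgam1, which was negative (-0.32). By rho, Hsph1 passed with 6, Dnajb1 with 11, Hsp90aa1 with 8 and Hspa1a with 1. Of the heat shock genes, 4 had their highest r with Ldha, the lactate dehydrogenase A gene: 0.86 for Dnajb1, 0.85 for Hspa1b, 0.81 for Hsp90aa1 and 0.68 for Hsph1 (adjusted p = 2.72e-05 each). Among the 45 tumours these were 0.77, 0.76, 0.75 and 0.56, and all 4 passed. Hmox1 was positive with Pgam1 (0.60) and negative with Gapdh (-0.33).

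**Figure D5:**
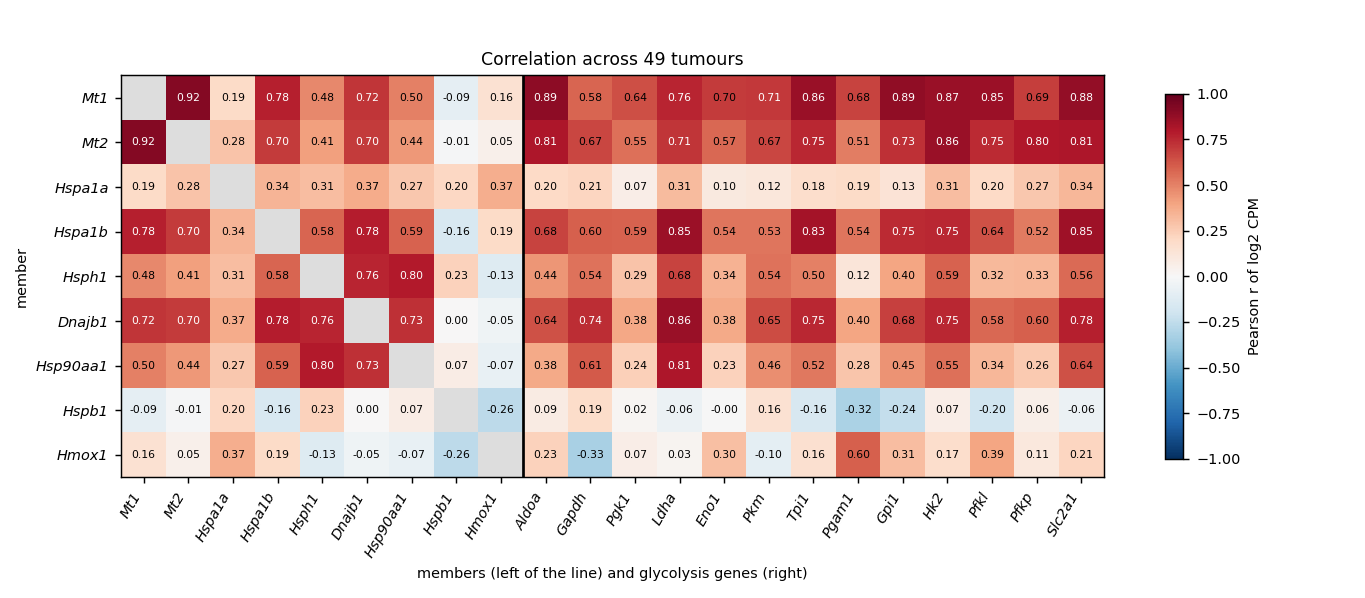
Pearson r of log2 CPM over 49 tumours between the 9 genes (left of the line) and with 13 glycolysis genes (right of it), from blue (-1) to red (1). Mt1 and Mt2 have r of 0.92 with each other, and Hmox1 has its highest r among the glycolysis genes with Pgam1 (0.60).

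Among the members, 18 of 36 pairs passed by r, all of them positive at 0.34 or more. The test was two-sided, and 21.3% of all pairs of tested genes reached that value in either sign, 11.1% as a positive r. By rho 17 passed, including Hspb1 with Hmox1, which was negative (-0.36, adjusted p = 0.025). Their r of -0.26 (adjusted p = 0.113) was -0.32 after subtracting the means of each group of treatment and response and -0.56 without the muscle-rich libraries, where both passed, as did Hspa1b with Hspb1 without those libraries (-0.44). The closest were Mt1 with Mt2 (0.92, rho 0.90), Hsph1 with Hsp90aa1 (0.80, rho 0.82), Hspa1b with Dnajb1 (0.78, rho 0.69), Mt1 with Hspa1b (0.78, rho 0.71) and Hsph1 with Dnajb1 (0.76, rho 0.70), each with an adjusted p of 3.27e-05. Hspa1a and Hspa1b, whose promoter windows differ at 4 bases, had r of 0.34 (adjusted p = 0.0326), with Hspa1a at a median of 25 counts. Hspb1 passed with none of the other 8 genes by r, and Hmox1 only with Hspa1a (0.37). Among the 45 tumours 11 pairs passed, with Mt1 and Mt2 at 0.88 and Hsph1 and Hsp90aa1 at 0.76.

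Of 72 relations with 8 other measures of the tumours, 20 passed by r. The smallest absolute r that passed was 0.36, and the share of all tested genes that reach it with these measures was not computed. The count is thus no sign that the members stand out from other genes. Mt1 had r of 0.91 with the mean of hypoxia-induced genes outside glycolysis (rho 0.83, adjusted p = 9e-05), 0.59 with immediate early genes (rho 0.63, adjusted p = 0.00032), 0.42 with glucocorticoid targets (rho 0.47, adjusted p = 0.0102) and -0.65 with macrophage markers (rho -0.47, adjusted p = 9e-05). Hspa1b had -0.73 with macrophage markers and 0.84 with the hypoxia list (rho -0.53 and 0.77, adjusted p = 9e-05 each). Hsph1 had -0.36 with the clock measure (rho -0.41, adjusted p = 0.0389), and -0.37 without the 2 tumours farthest from its median, which did not pass (adjusted p = 0.088). The clock measure was lowest in anti-PD-1 tumours, where the Hsph1 median was highest. This r over all tumours thus mixes differences between treatments with those between tumours of a treatment. Hspb1 had 0.55 with the muscle list (adjusted p = 0.000504), with a rho of 0.35 that did not pass (adjusted p = 0.0512), and 0.35 without celecoxib replicates 1 and 3, which did not pass (adjusted p = 0.151). Without the tumours farthest from the median of the macrophage mean (combination replicate 15 and vehicle replicate 8) r with it was -0.49 for Mt1 and -0.62 for Hspa1b. No member passed with total count. The summed level of 9 macrophage markers ranged from 402 to 5911 CPM in combination tumours, 537 to 5582 in anti-PD-1 tumours, 954 to 2798 in celecoxib tumours and 380 to 2608 in vehicle tumours, and its part in these relations was not tested.

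Of 24 other heat shock factor targets and chaperones, 1 passed in any comparison: Dnaja1, an HSP40 co-chaperone, fell in the combination against anti-PD-1 by 0.40 on the log2 scale (SE 0.10, edgeR adjusted p = 0.0462), and 21 of the 24 had a negative change there (median -0.14, beside -0.00 over all genes). None of the 13 glycolysis genes, 9 tested metal handling genes, 18 haem, iron and NRF2 genes and 12 unfolded protein response genes passed in any of the 9 comparisons. The glycolysis list had medians of 0.88 for R over NR in the combination and 1.01 under anti-PD-1, with all 13 genes positive in each. Over all genes these medians were 0.03 and 0.00. Under anti-PD-1 the list mean was 8.25 and 8.72 log2 CPM in R replicates 12 and 14, which are among the high-Aldoa tumours. In R replicates 15 and 17 it was 6.64 and 6.52, beside a median of 6.59 in NR tumours. In the combination its median was 6.72 in R and 6.26 in NR tumours. Of 7 glucocorticoid targets, Fkbp5 fell in the combination against vehicle (log2 change -0.88, SE 0.15, edgeR adjusted p = 0.0022) and against celecoxib (-0.87, SE 0.16, edgeR adjusted p = 0.00824), and in anti-PD-1 against vehicle (-0.83, SE 0.15, edgeR adjusted p = 0.00112). Tsc22d3 fell in anti-PD-1 against vehicle (-1.10, SE 0.22, edgeR adjusted p = 0.0128).

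The genes most like Mt1 across 49 tumours, among 11304 genes with a mean of at least 2 CPM, were Ndrg1 (r of 0.93), Mt2 (0.92), Bnip3 (0.92), Itpk1 (0.91) and Pdk1 (0.90). Those most like Hsph1 were Fosl1 (0.82), Hsp90aa1 (0.80), Mllt11 (0.77), Dnajb1 (0.76) and Pdgfa (0.76). Those most like Hmox1 were Rpl10-ps3 (0.78), Sesn2 (0.77), Itsn2 (0.75), Rpl36-ps2 (0.73) and Rpl37rt (0.72), and the ribosomal pseudogenes among them may share reads with their parent genes.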

How the data were processed

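RNA of 49 CT26 tumours was sequenced as 3′ libraries (QuantSeq FWD), per the labels' protocols. The deposited table holds raw counts per Ensembl gene (39179 genes, 37607 with a symbol). The submitters' processing notes list STAR, featureCounts, limma and bcl2fastq, with builds mm10 and GRCm38; no source used here gives versions or the strand setting. A second deposited table of log2 values was not used. Groups came from the labels, and replicate numbers only name tumours in accession order.

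Counts were tested with edgeR 4.0.16 in R 4.3.3 (TMM, filterByExpr, robust quasi-likelihood, Benjamini-Hochberg over all genes tested, limit 0.05) in 1 fit of 4 treatments (13726 genes) and 1 of 6 groups of treatment and response (14247 genes). Correlations used log2 CPM with a prior count of 2, two-sided permutation with 100000 resamples (exact under 10 tumours) and Benjamini-Hochberg over the relations with glycolysis genes, the 36 member pairs and the 72 relations with other measures, each as a family, in Python 3.11.15 with scipy 1.17.1. Both were tested on simulated data. Alternatives were DESeq2 1.42.0, limma-voom (limma 3.58.1), RLE normalization, no filter, the compared groups alone, muscle as a covariate, other prior counts, and leaving out tumours. Leaving out the 4 high-Aldoa tumours or the muscle-rich libraries was chosen after seeing the data.

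Members and lists were chosen with earlier results of these data known, so patterns seen before are not independent support. The text names all 9 members and Aldoa, genes of the other pathway lists past the limit, and the 5 genes most like Mt1, Hsph1 and Hmox1; Ldha, Pgam1, Gapdh, Fkbp5, Tsc22d3, Sbsn and Krt10 were named after their values were seen. Promoters came from RefSeq, matched by symbol.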

Additional observations from a re-analysis of the deposited data

Results flagged for a closer look

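Of 40 combinations of a gene and a group of 4 to 9 tumours, 3 held a tumour far from the others of its group; chance flags about 1 in 20 such groups. Hspa1b was at 6.67 log2 CPM in vehicle replicate 8, with the next vehicle tumour at 4.71. Aldoa was at 11.81 log2 CPM in the same tumour, with the next at 10.27. Hmox1 was at 2.76 log2 CPM in vehicle replicate 5, with the next lowest vehicle tumour at 4.13.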

How the results depend on the processing

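No member passed with edgeR as reported, and counts of members called changed as follows. With celecoxib against vehicle 1 passed (Hspb1) under DESeq2 and with no filter on low counts (0.196% of genes). In the combination against anti-PD-1 1 passed under DESeq2 (Hsp90aa1), 2 with muscle as a covariate (Hsph1 and Hsp90aa1), 1 without muscle-rich libraries (Hsp90aa1, beside 0.961% of genes), 2 without the 4 tumours with Aldoa above 2000 CPM (Hsph1 and Hsp90aa1), and 0 to 2 when single tumours were left out (1 without combination replicate 3, beside 1.6% of genes, and 2 without combination replicate 15, beside 3.28%). In the combination against vehicle 1 passed with muscle as a covariate (Hsp90aa1, beside 0.43% of genes), 4 without muscle-rich libraries, and 0 to 1 when single tumours were left out (1 without combination replicate 15, beside 1.15%). Without those 4 tumours, pairs that passed numbered 50 with glycolysis genes, 11 of 36 between members and 13 of 72 with other measures, against 80, 18 and 20 over all tumours. The matching shares over all genes were not computed without those tumours. Reversed without muscle-rich libraries were the Hspb1 changes with celecoxib against vehicle (-0.28), in the combination against celecoxib (1.02) and in the celecoxib effect with less that without anti-PD-1 (0.18), and r of Hspb1 with Aldoa (-0.0482). Reversed without the 4 tumours were the Mt1 change, R over NR, under anti-PD-1 (-0.43) and r of Hspa1a with Aldoa (-0.0538). The cause was not tested. Of the 59 member changes with an unadjusted p of 0.05 or more, 28 changed sign under at least 1 setting and 0 passed. No paired analysis was possible because the labels link no tumour of one treatment to a tumour of another. Low counts limit Hspa1a and Hspb1.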
